A study of Sus scrofa with 14 samples.

Results

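Nuclei of the pig mammary gland that carried transcripts of several secreted defence and tissue-remodelling genes were described across the reproductive cycle. Members were chosen by their measured values, as nuclei with at least 300 detected genes, at least 1 unique molecular identifier (UMI, 1 counted RNA molecule) in 3 or more of the 6 genes FDCSP, PGLYRP1, PIGR, CLU, MMP7 and ADIRF, and 0 UMIs summed over the 5 genes COL1A1, PTPRB, CD163, CD3E and ADIPOQ, which mark fibroblasts, endothelium, macrophages, T cells and adipocytes. Of 127926 nuclei with at least 300 genes, 10117 (7.91%) were members, and they are called 6-gene nuclei below. Single-nucleus RNA sequencing covered the frozen mammary glands of 10 sows, with 2 sows at each of 5 stages, and the gland of 1 sow was the replicate. All were multiparous sows in their second breeding cycle, sampled from the third gland region of the right side. The stages were day 90 of gestation (G90), days 0 and 20 of lactation (L0 and L20) and days 2 and 7 after natural involution began (PI2 and PI7). No group was treated or genetically altered, and each stage held different animals, so that stage and animal were separated by 2 sows only.

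The mammary epithelium consists of an inner luminal layer and an outer contractile myoepithelial layer. Luminal cells include milk-secreting alveolar cells, hormone-sensing cells and progenitor-like cells that line ducts and small alveoli, and ductal luminal cells take part in mucosal defence. PIGR carries polymeric antibodies across the epithelium into milk, and PGLYRP1 binds bacterial peptidoglycan. CLU (clusterin) is a secreted chaperone long known from involuting glands, MMP7 (matrilysin) is a secreted protease of glandular epithelium, FDCSP is a small secreted peptide and ADIRF is a small protein first described in fat tissue.

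In the deposited matrices the genes are ENSSSCG00000047156 (FDCSP), ENSSSCG00000038688 (PGLYRP1), ENSSSCG00000015657 (PIGR), ENSSSCG00000009668 (CLU), ENSSSCG00000014982 (MMP7) and ENSSSCG00000037918 (ADIRF). In the RefSeq annotation of Sscrofa11.1 PGLYRP1 spans chromosome 6 from 52318544 to 52322504. PIGR and MMP7 lie far apart on chromosome 9, from 67553094 to 67574698 and from 33214590 to 33225080. CLU lies on chromosome 14 from 11336585 to 11352569 and ADIRF on the same chromosome from 87928721 to 87930935. All 5 are annotated as protein-coding, and the intervals cover the whole genes, exons and introns together.

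Total UMIs ranged from 18962138 to 53165191 per gland. The sows of one stage were not always the most alike. Over the summed counts of 6-gene nuclei and 9986 genes, Spearman's rho was 0.716 between the L20 sows and 0.712 between the PI2 sows, whereas L20 sow 1 and PI2 sow 2 reached 0.890, L20 sow 2 and PI7 sow 1 reached 0.888, and PI2 sow 1 and PI7 sow 2 reached 0.933. These are descriptions across genes, which are not independent replicates. Pairs of libraries shared 4246 cell barcodes in all. L20 sow 1 gave 3259 of the 10117 members. Without it 6858 of 114999 nuclei were members (5.96%), 69.6% of them with exactly 3 of the 6 genes and 44.9% with PGLYRP1, PIGR and CLU.

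The 6-gene nuclei made up 3.02% and 2.77% of the nuclei in the G90 glands, 2.46% and 2.07% in the L0 glands, 25.2% and 1.31% in the L20 glands, 9.99% and 6.76% in the PI2 glands, and 10.5% and 16.7% in the PI7 glands, with sow 1 first. The lowest and the highest share of all 10 glands were thus both at L20. The 4 PI2 and PI7 glands were above both G90 and both L0 glands, but this order depended on the rule. With at least 2 of the 6 genes PI7 sow 1 stood at 21.5% and PI2 sow 1 at 24.6%, below L0 sow 2 at 27.6%. With at least 4 genes PI2 sow 2 stood at 0.894%, below G90 sow 1 at 1.49%, and with CLU left out of the rule it stood at 0.915%, below G90 sow 1 at 1.56% and L0 sow 2 at 1.105%. The exact (Clopper-Pearson) 95% binomial interval was 24.5 to 26.0% in L20 sow 1 and 1.14 to 1.51% in L20 sow 2, and these intervals cover counting error only.

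By stage the share was 2.89% ± 0.174 (SD, n = 2) at G90, 2.26% ± 0.272 in the L0 sows, 13.3% ± 16.9 in the L20 sows, 8.37% ± 2.29 in the PI2 sows and 13.6% ± 4.43 in the PI7 sows. The difference between the 4 lactation glands and the other 6 was smaller than the spread between glands, at 7.76% ± 11.6 against 8.29% ± 5.29 (exact two-sided permutation test over 210 splits, p = 0.886, Benjamini-Hochberg adjusted over 5 measures 0.971). The smallest p this design allows is 0.00476. Without L20 sow 1 the lactation glands were lower by 6.35 percentage points (exact permutation test, unadjusted p = 0.0476), so the outcome rested on that gland. No other gland left out gave p under 0.05 in this permutation test of the share. The shares of adjacent stages were not tested, since an exact permutation of 2 sows against 2 cannot reach p under 0.05.

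**Figure D1:**
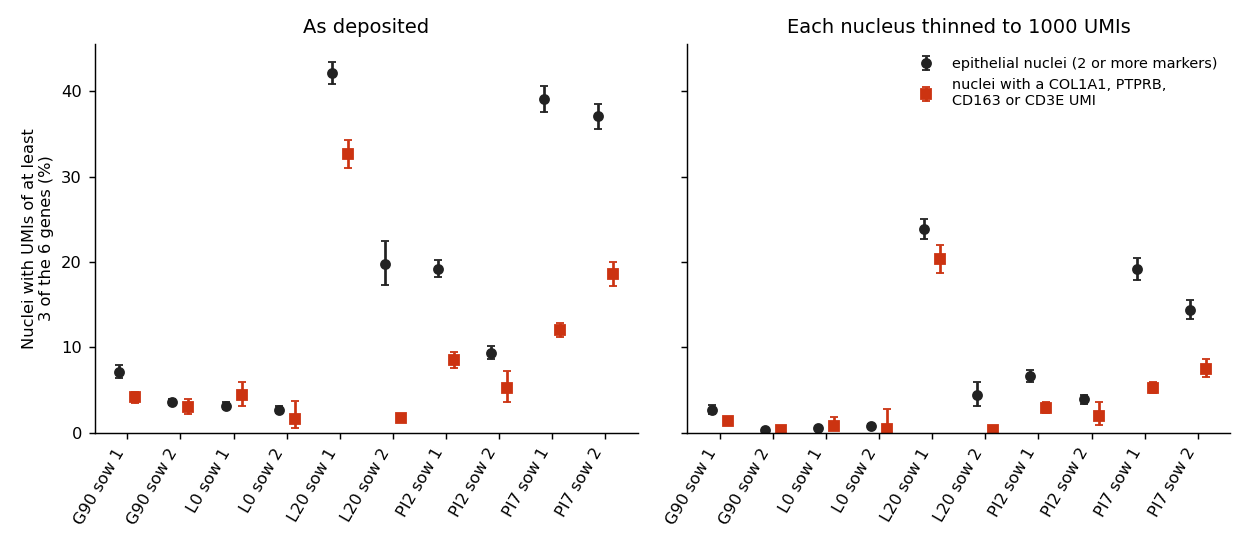
Share of nuclei with 3 or more of the 6 genes in each of the 10 glands (percent). It is given as counted and after each nucleus was thinned to 1000 UMIs. Points are nuclei with at least 2 of 9 epithelial markers and nuclei with a UMI of COL1A1, PTPRB, CD163 or CD3E. In L20 sow 1 these shares are 42.1% and 32.6% as counted and 23.8% and 20.3% after thinning. In L20 sow 2 they are 19.8% and 1.78% as counted and 4.39% and 0.301% after thinning.

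Nuclei differed in depth, and a deeper nucleus has more chances to show 3 of the 6 genes. The median nucleus held 1405 UMIs in L20 sow 1 and 2496 UMIs in G90 sow 2, the extremes of the 10 glands. After thinning each nucleus to 1000 UMIs and leaving out shallower ones, between 1445 and 4305 a gland, the share was 1.76% and 0.291% in the G90 sows, 0.538% and 0.770% in the L0 sows, 17.7% and 0.484% in the L20 sows, 4.35% and 3.38% in the PI2 sows, and 7.53% and 8.97% in the PI7 sows. At this depth too the 4 PI2 and PI7 glands were above the G90 and L0 glands. Lactation and the other stages again differed by less than the spread between glands (exact permutation test, difference 0.490 percentage points, p = 0.919, adjusted 0.971). Without L20 sow 1 the difference at this depth was -3.78 percentage points (exact permutation test, unadjusted p = 0.119).

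Most members stood at the limit of the rule. Exactly 3 of the 6 genes were seen in 6977 of them (69.0%), 4 genes in 2452, 5 genes in 649 and all 6 in 39. Just outside it, 19868 nuclei had UMIs in 2 of the genes and none in the 5 excluded genes, and a further 3247 nuclei had 3 or more of the 6 genes but also a UMI of an excluded gene. The median nucleus held 4 UMIs of the 6 genes just outside the limit and 8 just inside it. The share with exactly 3 genes was 96.0% in G90 sow 2 and 95.4% in L0 sow 2, against 50.6% in G90 sow 1 and 54.0% in PI7 sow 1.

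The genes that admitted members differed between glands. PGLYRP1, PIGR and CLU were seen together in 4300 members (42.5%), and this combination led in G90 sow 2 with 87.6%, in L0 sow 1 with 79.1% and in PI2 sow 2 with 59.2%. In L20 sow 2 it was level with PGLYRP1, CLU and ADIRF, each with 31.3% of members. In L20 sow 1 the leading combination was FDCSP, PGLYRP1 and CLU with 51.2% of members. PGLYRP1, PIGR and ADIRF led in L0 sow 2 with 51.8%, and PIGR, CLU and ADIRF in PI7 sow 1 with 50.1%. PGLYRP1, CLU and ADIRF led in G90 sow 1 with 60.1%, in PI2 sow 1 with 39.2% and in PI7 sow 2 with 41.4%. The leading combination thus differed between the 2 sows of every stage.

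The same genes were also seen in nuclei with a marker UMI of other cell types, called the other cell types below. Epithelial nuclei with such a UMI were not left out of this set. In nuclei with a UMI of COL1A1, PTPRB, CD163 or CD3E, 3 or more of the 6 genes were found in 4.15% and 2.999% in the G90 sows, 4.41% and 1.62% in the L0 sows, 32.6% and 1.78% in the L20 sows, 8.50% and 5.20% in the PI2 sows, and 12.1% and 18.6% in the PI7 sows. In nuclei with at least 2 of 9 epithelial markers the shares were 7.18% and 3.60%, 3.19% and 2.68%, 42.1% and 19.8%, 19.2% and 9.37%, and 39.0% and 37.0% in the same order. Only L0 sow 1 had the higher share in the other cell types. The median depths of the epithelial nuclei, 1640 to 3552 UMIs, exceeded those of the other nuclei, 1301 to 2480 UMIs.

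At 1000 UMIs a nucleus the epithelial share was 14.6 times that of the other cell types in L20 sow 2, at 4.39% against 0.301%. It was 3.62 times in PI7 sow 1, at 19.1% against 5.29%, and 2.26 times in PI2 sow 1. In L20 sow 1, which gave the most members, the ratio was 1.17, at 23.8% against 20.3%. In G90 sow 2 (0.306% against 0.331%) and L0 sow 1 (0.518% against 0.863%) the epithelial share was at or below that of the other cell types. The share thus did not set the members of these glands apart from that set, from which epithelial nuclei were not left out. In L0 sow 2 the shares of 0.777% (exact 95% interval 0.567 to 1.04) and 0.503% (0.0127 to 2.77, of 199 nuclei) were not separated either, and in PI2 sow 2 the intervals of 3.94% (3.43 to 4.49) and 1.95% (0.941 to 3.56) overlapped. Among nuclei with no epithelial marker at all, 15.1% had 3 or more of the 6 genes in L20 sow 1, and at most 2.48% in every other gland. Free RNA, doublets and expression in other cells were not tested as sources.

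As a check on the luminal name, nuclei with UMIs of at least 2 of the 9 epithelial markers were counted. Just outside the rule, with 2 of the 6 genes, they were 79.0% of nuclei, at a median depth of 2296 UMIs. Among the 6-gene nuclei the share was 86.7%, from 76.6% in L20 sow 1 to 97.1% in G90 sow 1. Their summed level of 13 luminal epithelial genes was 2940 to 4467 UMIs per 1000000 UMIs of the nuclei summed (CPM), against 2756 to 4112 CPM in other epithelial nuclei of the same glands, which were 50974 nuclei with at least 2 epithelial markers, no UMI of the 5 excluded genes and fewer than 3 of the 6 genes. The sum was higher in members in 5 of 10 glands. All 9 epithelial markers are among the 13 genes, so the other epithelial nuclei were chosen by genes of this sum and the members were not. Marker lists of other cell types were compared with the other epithelial nuclei, which like the members had no UMI of the 5 excluded genes. The members' sum was higher in 6 of 10 glands for the myoepithelial list, 5 for the B and plasma cell list, 4 for the mural list, 3 each for the fibroblast, macrophage and neutrophil lists, 2 for the T and NK lymphocyte list, 1 for the endothelial list and 0 for the adipocyte list. Lower sums than in nuclei with markers of other cell types follow in part from the rule, since those nuclei were taken for a UMI of COL1A1, PTPRB, CD163 or CD3E and members had none. Those nuclei also held epithelial RNA, with 429.9 to 2314 CPM of the 13 luminal genes and 659.7 to 12410 CPM of 12 secretory genes. The macrophage list of 5 genes summed to 13.8 to 106.6 CPM in members, 13.98 to 155.1 CPM in other epithelial nuclei and at least 156.6 CPM in nuclei with markers of other cell types. The fibroblast list of 5 genes summed to 21.1 to 191.6 CPM in members, with a lowest value of 853.5 CPM in the other cell types. The B and plasma cell list reached 275.0 CPM in members of L0 sow 1, where the other cell types held 431.4 CPM. In every gland its sum was lower in members than in the other cell types. The myoepithelial list of 9 genes summed to 214.9 to 1524 CPM in members, 146.0 to 1219 CPM in other epithelial nuclei and 198.3 to 959.1 CPM in the other cell types, and was higher in members than in the other cell types in 7 of 10 glands. The part of myoepithelial RNA in the members was not tested.

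FDCSP does not describe the members of most glands. It was seen in 61.3% of members of L20 sow 1 and 37.8% of PI2 sow 2, in 4.68% or fewer in the other 8 glands and in none of the 346 members of G90 sow 1, a count of 0 that allows up to 0.867% of nuclei with a UMI (3 counts of the total, counting error alone) and sets no limit on nuclei expressing the gene. Its level was 914.3 CPM in members of L20 sow 1, 338.5 CPM in PI2 sow 2 and 51.4 CPM in PI7 sow 2, and 12.3 CPM or less elsewhere. In L20 sow 1 the nuclei of other cell types held 447.4 CPM, and in PI2 sow 2 they held 79.3 CPM.

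**Figure D2:**
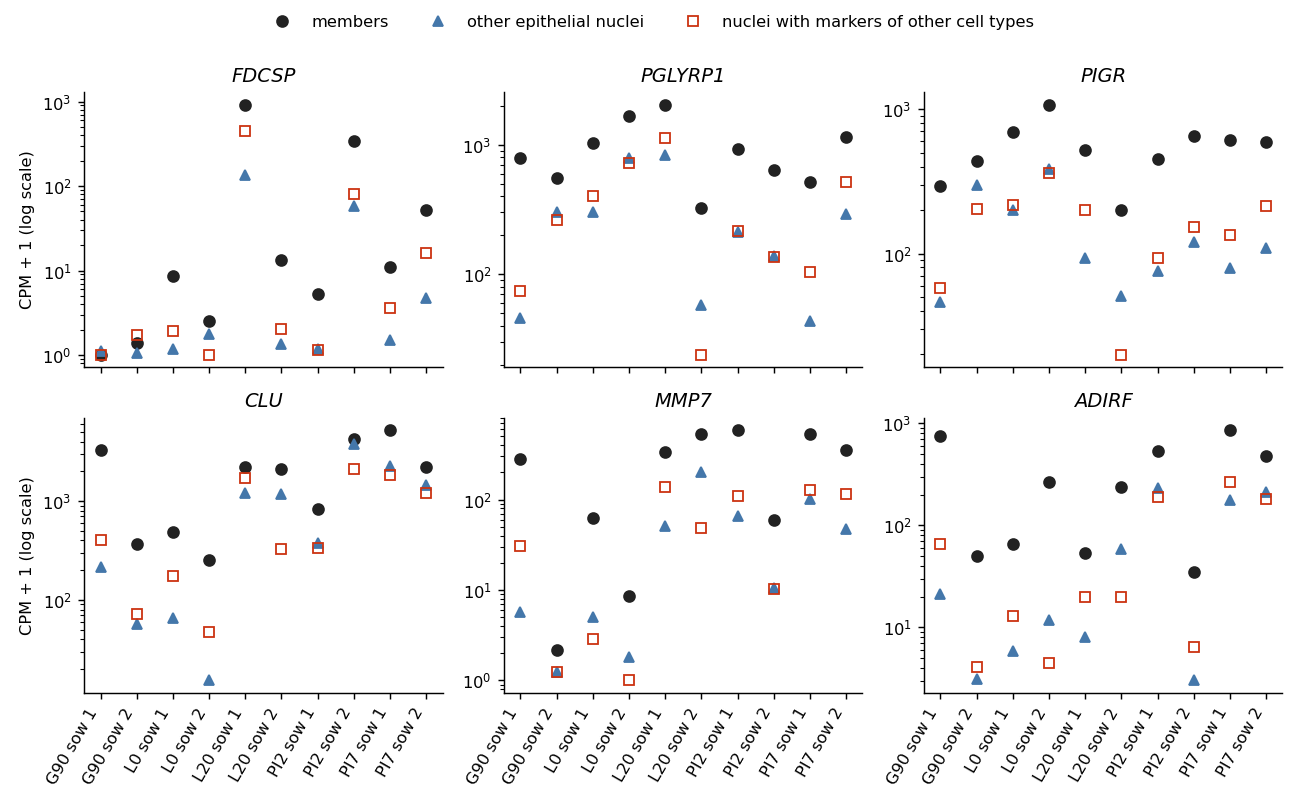
Levels of the 6 genes of the rule (CPM, log scale) in 6-gene nuclei, other epithelial nuclei and nuclei with markers of other cell types, 1 point a gland. FDCSP reaches 914.3 CPM in L20 sow 1 and 338.5 CPM in PI2 sow 2 and lies at 51.4 CPM or below in the other 8 glands, whereas PGLYRP1 lies between 323.4 and 2038 CPM in the members of every gland.

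The defence genes PGLYRP1 and PIGR were seen in members of every gland. PGLYRP1 stood at 790.0 and 555.0 CPM in the G90 sows, 1027 and 1675 CPM in the L0 sows, 2038 and 323.4 CPM in the L20 sows, 929.9 and 633.8 CPM in the PI2 sows, and 516.9 and 1140 CPM in the PI7 sows. PIGR stood at 293.1 and 436.1 CPM in the G90 sows, 687.8 and 1069 CPM in the L0 sows, 519.8 and 198.6 CPM in the L20 sows, 446.8 and 650.2 CPM in the PI2 sows, and 614.4 and 590.0 CPM in the PI7 sows. In members both L0 glands had more PIGR than every other gland, and L20 sow 2 had the least of both genes. Over all nuclei of a gland PIGR was highest in L0 sow 2 at 397.4 CPM and lowest in L20 sow 2 at 25.4 CPM, but L0 sow 1, at 221.9 CPM, was below G90 sow 2 (288.1 CPM), L20 sow 1 (251.8 CPM) and PI7 sow 2 (251.4 CPM).

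CLU, MMP7 and ADIRF, the chaperone, the protease and the small fat-tissue protein, varied more between glands. CLU stood at 3277 and 370.8 CPM in the G90 sows, 489.0 and 254.1 CPM in the L0 sows, 2221 and 2134 CPM in the L20 sows, 837.6 and 4243 CPM in the PI2 sows, and 5200 and 2228 CPM in the PI7 sows. The 2 L0 glands and G90 sow 2 were lowest. MMP7 stood at 281.4 and 1.18 CPM in the G90 sows, 61.8 and 7.52 CPM in the L0 sows, 334.0 and 530.0 CPM in the L20 sows, 582.9 and 59.1 CPM in the PI2 sows, and 531.1 and 355.4 CPM in the PI7 sows. ADIRF stood at 746.3 and 49.2 CPM in the G90 sows, 64.3 and 266.2 CPM in the L0 sows, 52.2 and 234.7 CPM in the L20 sows, 539.7 and 33.9 CPM in the PI2 sows, and 852.8 and 478.5 CPM in the PI7 sows. For MMP7 the L20 and PI7 glands lay above the G90 and L0 glands, and the PI2 sows, at 59.1 and 582.9 CPM, overlapped with every other stage. For ADIRF both PI7 glands were above both L0 and both L20 glands, whereas the G90 and the PI2 sows lay far apart. These levels chose the members and are given without a test.

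The median share of UMIs from the 13 mitochondrial protein-coding genes was higher in 6-gene nuclei than in other epithelial nuclei in 10 of 10 glands. The members' medians were 2.27% and 0.0580% in the G90 sows, 0.286% and 0.580% in the L0 sows, 0.338% and 0.106% in the L20 sows, 0.0379% and 0.619% in the PI2 sows, and 0.604% and 0.0869% in the PI7 sows. The corresponding medians of other epithelial nuclei were 0.320% and 0.0435%, 0.108% and 0.168%, 0.240% and 0.0966%, 0.0314% and 0.171%, and 0.180% and 0.0774%. The ratio ran from 1.101 in L20 sow 2 to 7.09 in G90 sow 1. The mitochondrial share entered no part of the rule, but the 6 genes were found as leading genes of a cluster of these nuclei, so this is a description with no test.

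Over 1% mitochondrial UMIs were found in 2452 members (24.2%), over 5% in 872 and over 25% in 163, of which 125 came from L20 sow 1. G90 sow 1 had 63.9% of its members over 1%, against 16.8% of its other epithelial nuclei. Within every gland, members with 4 to 6 of the genes had a higher median than members with 3. It was 4.69% against 0.769% in G90 sow 1, 1.11% against 0.312% in PI7 sow 1, and 0.0383% against 0.0377% in PI2 sow 1. Depth moved in the same direction. Members had more UMIs than other epithelial nuclei in all 10 glands, with medians of 1668 to 5170 against 1510 to 3475, and over all glands the median was higher with more of the 6 genes seen, from 1860 UMIs at 1 gene to 4819 UMIs at 6.

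**Figure D3:**
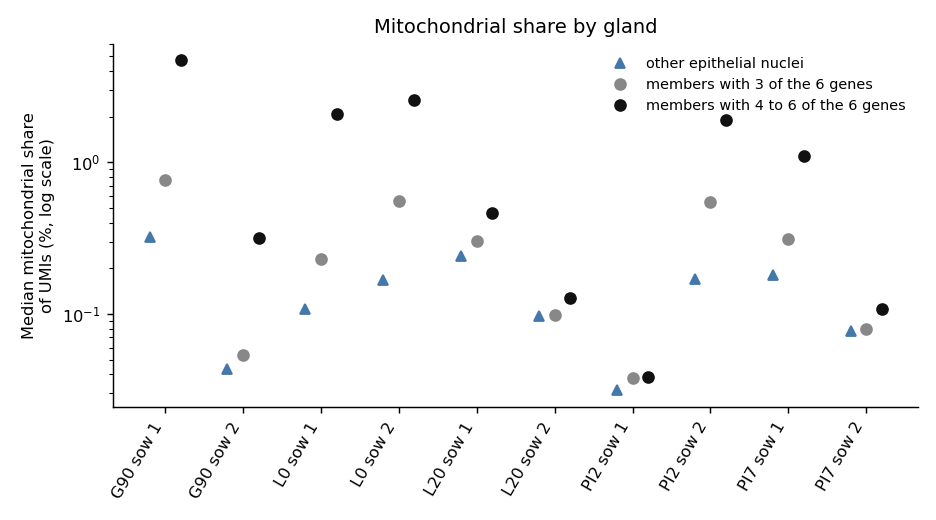
Median mitochondrial share of UMIs (percent, log scale) in each gland. Points are other epithelial nuclei, 6-gene nuclei with 3 of the 6 genes and 6-gene nuclei with 4 to 6 of them. Both groups of members lie above the other epithelial nuclei in all 10 glands. In G90 sow 1 the medians are 0.769% with 3 genes and 4.69% with 4 to 6, against 0.320%.

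Between lactation and the other stages the members' median mitochondrial share was 0.328% ± 0.196 (SD, n = 4) against 0.612% ± 0.854 (n = 6), a difference within the spread of glands (exact permutation test, p = 0.729, adjusted 0.971). The lower value in lactation rested on G90 sow 1, without which lactation was higher by 0.0464 percentage points (exact permutation test, unadjusted p = 0.881), and with means over members in place of medians lactation was higher by 0.586 percentage points. The excess over other epithelial nuclei was 0.175 ± 0.173 against 0.475 ± 0.751 percentage points (exact permutation test, p = 0.667, adjusted 0.971), and without G90 sow 1 the difference was -0.00585 percentage points. With means over members it was 0.159 percentage points. The median depth of members was 3330 ± 1465 against 3296 ± 952.7 UMIs (exact permutation test, p = 0.971, adjusted 0.971).

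The leading differences in level were also mitochondrial. Of 8173 genes outside the rule with a mean of at least 20 CPM in either population, 163 were higher in 6-gene nuclei than in other epithelial nuclei in all 10 glands (1.99%) and 160 were lower in all 10 (1.96%). No gene was 2-fold higher in all 10 glands (0%) and none 2-fold lower (0%). Ratios here are log2 ratios of CPM + 5, which understate differences of low genes. Of the 10 named genes with the highest median ratio 9 were mitochondrial. COX1, a subunit of cytochrome c oxidase, had a median log2 ratio of 1.48 (range 0.07 to 2.69). COX2, COX3, ATP6, CYTB, ND1, ND2, ND4 and ND5 had medians between 1.16 and 1.42.

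CD14, the bacterial lipopolysaccharide co-receptor that in mammary epithelium marks luminal progenitors, was the only nuclear gene among these 10. Its level in 6-gene nuclei was 38.3 and 2.76 CPM in the G90 sows, 132.8 and 39.1 CPM in the L0 sows, 90.5 and 99.3 CPM in the L20 sows, 57.7 and 182.1 CPM in the PI2 sows, and 133.9 and 139.8 CPM in the PI7 sows. In other epithelial nuclei it was 3.39 and 1.68, 36.1 and 18.6, 43.5 and 43.7, 18.2 and 109.4, and 46.2 and 62.8 CPM in the same order. The members were higher in every gland, with a median log2 ratio of 1.097 (range 0.22 to 2.37), and both populations were lowest at G90.

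**Figure D4:**
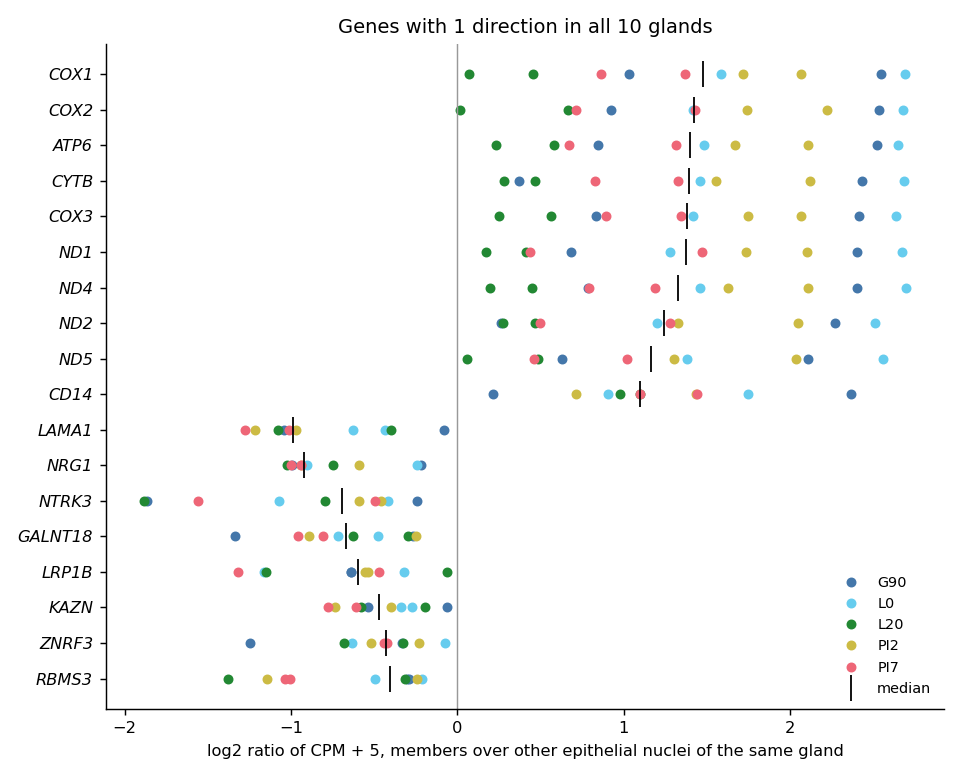
Log2 ratio of level (CPM + 5) in 6-gene nuclei over other epithelial nuclei for 18 genes, 1 point a gland. COX1 and CD14 lie above 0 in all 10 glands with medians of 1.48 and 1.097, and LAMA1 and NRG1 lie below 0 in all 10 with medians of -0.99 and -0.92.

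On the lower side LAMA1, a laminin chain of basement membranes, had a median log2 ratio of -0.99 (range -1.28 to -0.08). NRG1, a ligand of ERBB receptors, had -0.92 (range -1.02 to -0.22). The neurotrophin receptor NTRK3 had -0.69, the glycosyltransferase GALNT18 -0.67 and the lipoprotein receptor relative LRP1B -0.60. KAZN, ZNRF3 and RBMS3 lay between -0.47 and -0.40. With nuclei of 1000 to 3000 UMIs in both populations these 8 genes had medians between -1.10 and -0.41, but only NTRK3 was then lower in all 10 glands. RBMS3 was higher in members of 3 glands, NRG1 (median -0.46) and KAZN of 2, and the other 4 of 1. COX1 and CD14 were still higher in all 10, whereas CYTB was in 9. LAMA1 stood at 81.9 and 126.7 CPM in members at G90, against 173.7 and 134.2 CPM in other epithelial nuclei, and at 51.9 CPM or less in members of every later stage.

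Gene lists were compared by how many of their genes were higher in every gland. Of 12 mitochondrial genes tested 10 were higher in all 10 glands (median log2 ratio 1.35), and of 56 cytosolic ribosomal protein genes 26 were (median 0.41), beside 1.99% of all genes and their median of -0.03. Within each gland, members with over 1% mitochondrial UMIs had more CD14, B2M, KRT8, EPCAM, SPP1, RPLP1 and RPS15 than members with less, in 10 of 10 glands for each of these genes. KRT18 was higher in 9 of 10 glands and SCGN in 3 of 10. In L20 sow 2 and G90 sow 2 only 32 and 20 members exceeded 1%. How far the mitochondrial share accounts for the ratios was not tested, but the values with at most 5% mitochondrial UMIs are known. They left 137 genes higher in all 10 glands, of which 107 were among the 163, and 79 lower, of which 62 were among the 160. With nuclei of 1000 to 3000 UMIs in both populations 99 genes were higher, 61 of them shared, and 101 lower, 25 of them shared.

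Defence genes outside the rule were measured next to them. Of 6 antigen presentation genes tested, B2M, CD74 and PSMB9 were higher in all 10 glands and the list's median log2 ratio was 0.21. With nuclei of 1000 to 3000 UMIs 1 of the 6 genes was higher in all 10. B2M, the light chain of class I molecules, had a median of 0.77 (range 0.36 to 1.83), with 166.9 CPM in members of L0 sow 2 at the low end and 1426 CPM in PI2 sow 2 at the high end. Of 4 complement and acute phase genes tested, C3 (median 0.44, range 0.02 to 2.67) and CFI (0.43, range 0.11 to 2.33) were higher in 10 of 10, and LBP, which hands lipopolysaccharide to CD14, was higher in 9 of 10 with a median of 0.63. Of the 3 antimicrobial and mucosal defence genes tested none was higher in all 10. LTF (lactoferrin) had a median of 0.57 and WFDC2 of 0.78, each higher in 9 of 10 glands, beside 5.67% of all genes higher in at least 9, and MUC15 had 0.09 and was higher in 6 of 10. None of the 12 interferon-stimulated genes tested was higher or lower in all 10, and their median was 0.03.

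Luminal genes varied among themselves. CLDN7, a tight junction claudin, and SPINT2, an epithelial protease inhibitor, were higher in all 10 glands with medians of 0.64 and 0.27, whereas the transcription factor GRHL2 was lower in all 10 with -0.20. KRT8 had a median of 0.74 and was higher in 8 of 10 glands, and EPCAM had 0.09 and was higher in 7 of 10. Of the 5 luminal progenitor genes tested all had medians above 0, beside 3217 of all 8173 genes, with KIT at 0.17 and ALDH1A3 at 0.69 and higher in 9 of 10. Of the 4 hormone-sensing genes tested all had medians below 0, but so had 4955 of the 8173 genes, and none of the 4 was lower in all 10 glands, with ESR1 at -0.57 and lower in all glands but 1. The 12 secretory genes had a median of 0.01. Among myoepithelial genes KRT14 was higher in 10 of 10 (median 0.51), while TP63 had -0.48, and the endothelial gene PECAM1 was lower in 10 of 10 (-0.22).

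The 6-gene nuclei overlapped in transcripts with other luminal groups. UMIs of KIT together with ALDH1A3, SOX9 or ELF5 were seen in 82.7% and 64.9% of members at G90, 68.4% and 74.4% in the L0 sows, 19.0% and 63.2% in the L20 sows, 80.9% and 6.93% in the PI2 sows, and 73.3% and 68.3% in the PI7 sows. The share was higher in members than in other epithelial nuclei in 9 of 10 glands, but members were also deeper in all 10, and such a share is larger in deeper nuclei. Per UMI, KIT was higher in members in 7 of 10 glands, ALDH1A3 in 9, SOX9 in 6 and ELF5 in 2. L20 sow 1 and PI2 sow 2 were low in both populations, with 16.1% and 5.94% of other epithelial nuclei. UMIs of at least 2 of ESR1, PGR and FOXA1, genes of hormone-sensing cells, were seen in 0.736 to 6.34% of members. This share exceeded that of other epithelial nuclei in both G90 sows, L0 sow 1, L20 sow 2, PI2 sow 2 and PI7 sow 2. In the other glands it was lower. UMIs of at least 3 secretory genes were seen in 2.89% and 80.3% of members at G90, 87.2% and 74.9% in the L0 sows, 17.2% and 7.46% in the L20 sows, 0.241% and 39.2% in the PI2 sows, and 0.514% and 0.0593% in the PI7 sows. This share too was higher in members than in other epithelial nuclei in every gland but G90 sow 1, where those held 5.34%.

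Milk genes accordingly set the glands apart. The summed level of the 12 secretory genes in 6-gene nuclei was 1458 and 12540 CPM in the G90 sows, 17400 and 14020 CPM in the L0 sows, 3921 and 1961 CPM in the L20 sows, 1670 and 4670 CPM in the PI2 sows, and 1281 and 1512 CPM in the PI7 sows. G90 sow 2 and the L0 glands were high, and the sows of G90 and of PI2 lay far apart. CSN2 (beta-casein) stood at 61.2 and 1789 CPM in the G90 sows, 2756 and 2683 CPM in the L0 sows, 335.6 and 16.7 CPM in the L20 sows, 7.39 and 1110 CPM in the PI2 sows, and 2.53 and 0.405 CPM in the PI7 sows. LALBA (alpha-lactalbumin), the regulatory subunit of lactose synthase, was at 707.3 and 791.0 CPM in the L0 sows and at 0 in members of G90 sow 1, L20 sow 2, PI2 sow 1 and PI7 sow 2.

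**Figure D5:**
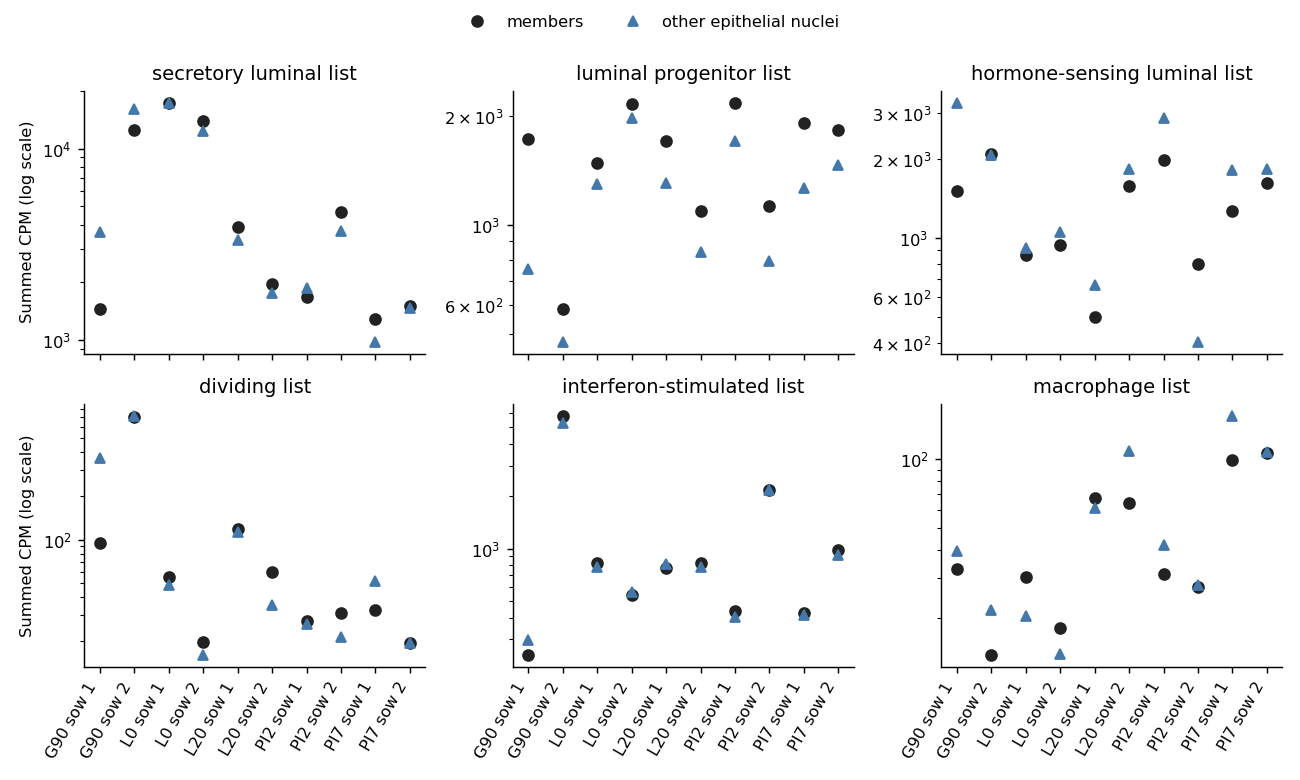
Summed level (CPM, log scale) of gene lists in 6-gene nuclei and in other epithelial nuclei of each gland. In members the secretory list runs from 1281 CPM in PI7 sow 1 to 17400 CPM in L0 sow 1. Among members G90 sow 2 stands highest in the dividing list with 702.6 CPM and in the interferon-stimulated list with 5791 CPM. The other epithelial nuclei of G90 sow 2 stand at 713.8 and 5258 CPM in these lists.

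Dividing and interferon lists were led by 1 gland. The 4 dividing-cell genes summed to 702.6 CPM in members of G90 sow 2 and to 19.2 to 118.9 CPM in the other 9 glands. The 16 interferon-stimulated genes summed to 5791 CPM in G90 sow 2, 2161 CPM in PI2 sow 2 and 244.2 to 975.9 CPM elsewhere. Other epithelial nuclei had similar highest sums, 713.8 CPM for the dividing list and 5258 CPM for the interferon list. OAS2, an interferon-induced sensor of viral RNA, reached 1597 CPM in members of G90 sow 2 and 25.5 CPM in G90 sow 1, the sow of the same stage.

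Stage was tested gene by gene on the summed UMIs of 6-gene nuclei per gland. Among 13382 genes outside the rule, edgeR's quasi-likelihood test found no gene with an adjusted p under 0.05 and an absolute log2 fold change over 1 in any adjacent comparison, which is 0% of genes for L0 against G90, 0% for L20 against L0, 0% for PI2 against L20 and 0% for PI7 against PI2. An unadjusted p under 0.05 was reached by 1256, 1182, 368 and 258 genes in that order. DESeq2 called 186 genes (136 higher and 50 lower), 134 genes (50 and 84), 0 genes and 8 genes (5 and 3). No list had a member called by edgeR in any comparison. The common biological coefficient of variation was 0.478.

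The genes closest to a call between L0 and G90 are given as values. GUCY1B1, a subunit of soluble guanylate cyclase, stood at 28.7 and 20.1 CPM in the G90 sows and at 126.1 and 175.9 CPM in the L0 sows (log2 difference 2.79 ± 0.42 SE, edgeR adjusted p = 0.267). NALCN, a sodium leak channel, stood at 120.2 and 184.6 CPM against 1920 and 1418 CPM (3.58 ± 0.64, edgeR adjusted p = 0.267). PDE7A (2.61), INSIG2 (2.36) and RETREG1 (2.94) had the same adjusted p. All genes named for adjacent stages were chosen as not overlapping between the sows of the 2 stages. On the lower side LAMA1 stood at 81.9 and 126.7 CPM against 6.77 and 7.52 CPM (-3.75 ± 0.84, edgeR adjusted p = 0.291), and UBASH3B, RCN1, POLE and GPR39 had log2 differences between -4.95 and -2.87. For each named gene other epithelial nuclei differed between the stages in the same direction, as with NALCN at 94.7 and 213.6 CPM against 2531 and 1473 CPM. LAMA1 stood higher there than in members, at 173.7 and 134.2 CPM against 10.9 and 14.3 CPM.

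Between L20 and L0 the orphan receptor GPR39 stood at 10.2 and 3.01 CPM in the L0 sows and at 223.9 and 366.5 CPM in the L20 sows (5.11 ± 0.85, edgeR adjusted p = 0.343). SLC12A2, the sodium, potassium and chloride cotransporter of secretory epithelia, stood at 2.54 and 6.02 CPM against 118.1 and 248.7 CPM (5.23 ± 0.99, edgeR adjusted p = 0.387). GRAMD1B, GRID1 and UBASH3B had differences of 3.05, 2.63 and 2.99, and PTPRT, TTLL7, POC1A and NECTIN3 of -3.34, -2.42, -2.99 and -2.92. For each of these genes other epithelial nuclei differed in the same direction. GPR39 stood there at 12.4 and 10.7 CPM in the L0 sows and at 178.8 and 293.0 CPM in the L20 sows. The choice of these genes required that the sows of the 2 stages did not overlap.

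In the PI2 against L20 and PI7 against PI2 comparisons the smallest edgeR adjusted p was 0.999 and 0.938. SIDT1, AIF1L, MLPH, AMOTL2 and SMTN had the smallest p among genes higher at PI2, with log2 differences between 1.84 and 3.37, and DIAPH3, CPSF6, AQP9, TREH and MGLL among genes lower at PI2, between -5.38 and -2.27. ACP5, an acid phosphatase of macrophages and osteoclasts, stood at 2.84 and 1.09 CPM in the PI2 sows and at 214.8 and 105.8 CPM in the PI7 sows (6.09 ± 0.96, edgeR adjusted p = 0.938, DESeq2 adjusted p = 3.40e-09). For ACP5 other epithelial nuclei held 4.13 and 1.01 CPM in the PI2 sows and 354.8 and 59.8 CPM in the PI7 sows. The macrophage complement gene C1QA stood at 1.71 and 0.547 CPM against 16.3 and 14.2 CPM in members (3.47 ± 0.86). ATP6V0D2, CPSF6 and PDK4 had differences of 4.29, 4.64 and 2.47. Every gene tested in the fibroblast, endothelial, T and NK lymphocyte and mural lists had a difference above 0 from PI2 to PI7. These lists held 5, 5, 4 and 3 tested genes. All 5 macrophage list genes had differences above 0 from PI2 to PI7, beside 6233 of all 13382 genes, and 3 of them had an unadjusted p under 0.05, beside 125 of all genes in this direction. Their sum was 31.3 and 27.3 CPM in members of the PI2 sows and 99.2 and 106.6 CPM in the PI7 sows. Other epithelial nuclei held 42.0 and 28.1 CPM against 155.1 and 107.2 CPM, and the other cell types 156.6 and 182.7 CPM against 360.6 and 480.5 CPM, so the difference was seen outside the members too. The part of macrophage RNA in these values was not tested.

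On the lower side at PI7 the milk whey gene PAEP stood at 1656 and 3398 CPM in the PI2 sows and at 328.0 and 271.0 CPM in the PI7 sows (-3.34 ± 0.87, edgeR adjusted p = 0.9998). TGM5 (-6.62) and CRISP3 (-4.60) were carried by PI2 sow 2, with 201.3 and 111.6 CPM, against 7.11 and 7.96 CPM in PI2 sow 1. DOK5 and PHYHIPL had differences of -1.56 and -3.20. By list, the 4 dividing genes had a median difference of -3.62 from G90 to L0 and the 15 interferon-stimulated genes tested had -2.68, beside -0.11 over all genes, and in both lists every gene lay below 0, as did 7366 of all 13382 genes. G90 sow 2 was far above G90 sow 1 in both lists, whose sums in G90 sow 1 were 94.2 and 244.2 CPM, and the interferon sum of G90 sow 1 was below those of both L0 glands.

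Whether a stage difference was not the same in 6-gene nuclei and other epithelial nuclei was tested by the interaction of population and stage in edgeR with the gland as a block, over 17807 genes. The genes that admitted members differed between glands, and whether an interaction followed stage or this choice of nuclei was not tested. In G90 sow 2 and both L0 sows the thinned epithelial share was not separated from that of the other cell types. From G90 to L0, 11 genes passed (0.0618%), all with a lower interaction, and 1 gene passed from L0 to L20 (0.00562%). None passed for PI2 against L20 (0%) or for PI7 against PI2 (0%), where 468 and 694 genes had an unadjusted p under 0.05 and DESeq2 called 0 and 0. DESeq2 called 16 and 8 genes in the first 2 comparisons. The counts turned on single glands. With each gland left out in turn, 0 to 68 genes passed for L20 against L0, 1 to 44 for PI2 against L20 and 0 to 26 for PI7 against PI2. The 44 and 26 came without PI2 sow 1, and PI2 against L20 also gave 36 and 41 without G90 sow 1 and sow 2. The count for L0 against G90 was 754 without G90 sow 2 and 27 without G90 sow 1, 2 and 6 without L0 sow 1 and sow 2, 13 without PI7 sow 1, and 100 to 186 without each of the other 5 glands, where a lone sow is assumed to vary like the other stages.

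EFNA5, a membrane-bound ephrin ligand, had the smallest adjusted p. Its level was 715.5 and 20.1 CPM in 6-gene nuclei and 71.5 and 8.40 CPM in other epithelial nuclei at G90, and 125.2 and 130.8 CPM against 124.4 and 165.1 CPM in the L0 sows. The log2 ratio of members to other epithelial nuclei was thus 3.24 and 0.90 in the G90 sows and 0.01 and -0.32 in the L0 sows, with an interaction of -2.93 ± 0.41 SE (edgeR adjusted p = 0.00215). It passed with each of the 10 glands left out in turn. The members were higher at G90 in both sows and differed in sign between the L0 sows.

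The other 10 genes were also higher in members of both G90 sows, and their log2 ratios in the L0 sows lay between -0.85 and 0.41. CXCL2, a neutrophil chemokine, stood at 885.2 and 325.1 CPM in members and 96.2 and 136.9 CPM in other epithelial nuclei at G90, and at 1208 and 1215 CPM against 1237 and 964.0 CPM in the L0 sows (interaction -2.32 ± 0.42, edgeR adjusted p = 0.0163). C3, the central complement component, stood at 233.5 and 116.9 CPM against 32.4 and 48.8 CPM in the G90 sows, and at 1232 and 1334 CPM against 925.6 and 1100 CPM in the L0 sows (-1.95 ± 0.35, edgeR adjusted p = 0.0163). For both genes the other epithelial nuclei held far more at L0 than at G90. FKBP5, a glucocorticoid-induced chaperone, had log2 ratios of 1.44 and 0.92 in the G90 sows and of 0.01 and 0.06 in the L0 sows (-1.51 ± 0.25, edgeR adjusted p = 0.00759).

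MGAT5, ITPRID2, FBXO32, SORT1, STAC2, CCDC148 and KCTD8 had interactions of -2.21, -1.94, -1.60, -1.84, -1.63, -1.50 and -2.04. In each of the 11 genes G90 sow 1, the gland with the highest mitochondrial share in members, had a larger ratio than G90 sow 2. With nuclei of at most 5% mitochondrial UMIs all 11 kept an adjusted p under 0.05, the highest being 0.00794 for CCDC148. Leaving out a gland ended the call of MGAT5 without L0 sow 2 and of ITPRID2 without L0 sow 1. FKBP5, CXCL2 and C3 were lost without either L0 sow, and FBXO32, SORT1, STAC2, CCDC148 and KCTD8 without either L0 sow or without G90 sow 1. The highest adjusted p of these 10 genes with a gland left out was 0.536, for SORT1.

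MDGA2, a neuronal adhesion gene, was the 1 gene from L0 to L20. Its log2 ratio was 2.11 and 0.90 in the L0 sows and -1.60 and -1.85 in the L20 sows, with 69.4 and 22.6 CPM in members at L0 and 26.2 and 35.2 CPM in the L20 sows (interaction -3.66 ± 0.57, edgeR adjusted p = 0.0146). The call was lost without L0 sow 1, with an adjusted p of 0.952, in nuclei of at most 5% mitochondrial UMIs (0.823) and in DESeq2 (0.283). IL33, an alarmin, had the smallest p from L20 to PI2, with log2 ratios of -1.75 and -1.57 in the L20 sows and -0.15 and 1.01 in the PI2 sows, and did not pass (edgeR adjusted p = 0.0813).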

How the data were processed

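Single-nucleus RNA-seq libraries of 10 frozen glands were used, 1 a sow. The authors used the GEXSCOPE single nucleus kit and the CeleScope v1.1.7 pipeline, with Sscrofa11.1 as genome, and the deposited values are raw UMI counts of barcodes called as nuclei. Removal of ambient RNA or doublets is not stated, and neither is the annotation release. The files held 28711 gene identifiers, 15457 with a symbol and 644 given one from the RefSeq table, and 0 columns of values were left unused. Spatial sections and milk cells appear in the closing section only.

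The members and gene lists were chosen with earlier results of these data known, since the 6 genes led a cluster of these nuclei. Listed genes without a symbol match here, such as KRT19, CSN1S2 and LCN2, were not analysed here. UMIs were summed per gland over members and over other epithelial nuclei, and CPM were computed on these sums. The sums then entered the quasi-likelihood test of edgeR 4.0.16, with TMM factors and filterByExpr, over glands with at least 20 members, Benjamini-Hochberg adjusted over all genes, with DESeq2 1.42.0 as an alternative. Shares and medians per gland were compared between 4 lactation and 6 other glands by exact permutation. Member ratios were not tested. Named genes were, per adjacent comparison and direction, the 5 genes with a symbol and the smallest p whose sows did not overlap, none being called. For ratios they were the 10 of largest median in each direction with at least 50 CPM and 1 direction in every gland, and for the interaction the 5 of smallest p and all called. Some genes that this rule selects are not reported here. For gene lists the rule allowed up to 4 examples with the largest ratio or fold change among genes with at least 20 CPM in members, and every other list gene given with a value was chosen after its values were seen. Doublets were scored with Scrublet in scanpy 1.11.5 and kept. Thinning drew 1000 UMIs a nucleus without replacement. The edgeR fits of stage and of the interaction were first run on simulated counts. The DESeq2 fits were not simulated, and the simulated interaction had no effect of gland. Python 3.11.15, numpy 2.4.6, scipy 1.17.1 and R 4.3.3 were used.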

Additional observations from a re-analysis of the deposited data

Results flagged for a closer look

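The highest and the lowest gland of each group were tested (Dixon's test at 95%). In 4 of 10 groups of glands a gland stood apart, where chance gives about 1 in 20 for a single group. The groups were overlapping measures of the same glands and pooled stages. They were not independent, so the count was not set against chance. L20 sow 1 stood apart from the other 3 lactation glands with 25.2% of its nuclei as 6-gene nuclei, and with 17.7% after thinning to 1000 UMIs. G90 sow 1 stood apart from the other 5 glands outside lactation with a median mitochondrial share of 2.27% in members, and with an excess of 1.95 percentage points over other epithelial nuclei. The members of these glands were also unlike in what admitted them, since FDCSP was seen in 61.3% of members of L20 sow 1 and in none of G90 sow 1.

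The difference between 6-gene nuclei and other epithelial nuclei was not the same at G90 and L0 for EFNA5 (interaction -2.93 on the log2 scale), MGAT5 (-2.21), ITPRID2 (-1.94), FKBP5 (-1.51), FBXO32 (-1.60), SORT1 (-1.84), CXCL2 (-2.32), C3 (-1.95), STAC2 (-1.63), CCDC148 (-1.50) and KCTD8 (-2.04), and not the same at L0 and L20 for MDGA2 (-3.66), each by edgeR's interaction test. The genes that admitted members differed between glands, and whether these differences followed stage or that choice was not tested. EFNA5 alone of these 12 genes passed with every gland left out in turn.

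Libraries outside the nucleus comparison also held the 6 genes, with 1 library a group and no replicate check. Of the spots with at least 300 genes, 88.4% of 4718 in the G90 section and 80.7% of 2198 in the PI2 section had UMIs of 3 or more of the 6 genes, at median depths of 8064 and 6098 UMIs. A spot can hold several cells. Of the milk barcodes, 8.45% of 17630 in the L0 sample and 5.998% of 14554 in the L20 sample did, at 1334 and 1287 UMIs. ADIRF stood at 1051 CPM in the G90 section and 8982 CPM in the PI2 section, and PGLYRP1 at 11130 CPM in L0 milk and 1770 CPM in L20 milk. FDCSP was at 0.0934 and 0.949 CPM in the sections and at 86.1 and 169.7 CPM in milk.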

How the results depend on the processing

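The share of 6-gene nuclei depended on the rule. Given as stage means of G90, L0, PI2 and PI7, it was 15.5%, 22.7%, 28.5% and 27.7% with at least 2 of the 6 genes, 0.802%, 0.148%, 1.94% and 5.101% with at least 4, and 1.02%, 0.654%, 3.86% and 8.25% after thinning. Leaving out PGLYRP1 gave 1.11%, 0.191%, 3.56% and 8.78%, CLU 0.911%, 0.809%, 2.66% and 5.44%, and ADIRF 2.26%, 1.57%, 5.95% and 8.225%. Leaving out PIGR gave 1.19%, 0.253% and 4.58% at the first 3. Without the exclusion genes G90 stood at 3.67% and PI7 at 18.9%, with at least 500 genes G90 at 3.20% and with at most 5% mitochondrial UMIs at 2.52%. At these 4 stages the other alternatives moved the means by less than 1 SD. At L20 the SD exceeded the mean, and the mean of 13.3% was 26.8% with at least 2 genes, 4.27% with at least 4, 9.09% after thinning, 18.2% without the exclusion genes, and 8.96%, 5.20%, 10.1%, 4.93%, 10.8% and 12.6% with FDCSP, PGLYRP1, PIGR, CLU, MMP7 and ADIRF left out. With each gland left out the means ran from 2.77 to 3.02% at G90, 2.07 to 2.46% at L0, 1.31 to 25.2% at L20, 6.76 to 9.99% at PI2 and 10.5 to 16.7% at PI7. Scrublet's automatic threshold called 0 to 2 doublets in 9 glands and 410 in PI7 sow 2, so leaving out the highest 6% of scores a gland was added after seeing the data. The stage means were then 2.84%, 2.24%, 13.2%, 8.225% and 13.7% from G90 to PI7.

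Lactation minus other stages ran from -6.35 to 1.62 percentage points for the share with a gland left out, from -3.78 to 1.95 after thinning, from -0.399 to 0.0464 for the mitochondrial share, from -578.3 to 589.0 UMIs for depth and from -0.394 to -0.00585 for the mitochondrial excess. Means over members in place of medians turned the mitochondrial difference to 0.586 and the excess to 0.159 percentage points.

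For stage changes DESeq2 called 186, 134, 0 and 8 genes in the 4 adjacent comparisons in order of time, and no filter on low counts gave 357, 387, 28 and 73, against 0 in edgeR. Fitting only the 2 stages compared gave 1 gene for L20 against L0, and at least 4 of the 6 genes gave 1 for L0 against G90. A gland left out gave 0 to 8, 0 to 6, 0 to 0 and 0 to 0 genes, where a lone sow is assumed to vary like the other stages. With the replicate block 0 genes were called in each comparison. Samples of the same number did not deviate together, with correlations from -0.318 to 0.215 and 2 of 10 stage pairs over 0.1, so the sows share only a number.

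For the interaction no filter gave 160, 49, 28 and 1 genes, at most 5% mitochondrial UMIs gave 82 for L0 against G90, and DESeq2 gave 8 for L20 against L0. A gland left out gave 2 to 754, 0 to 68, 1 to 44 and 0 to 26. Genes higher in all glands numbered 99 with nuclei of 1000 to 3000 UMIs, and genes lower numbered 101 there, 79 with at most 5% mitochondrial UMIs and 291 with at least 4 genes (9 glands), where 2 genes were 2-fold higher in all. A gland left out gave 165 to 232 genes higher, 185 to 250 lower, and 0 to 0 past 2-fold in either direction. The causes of these moves were not tested. No named gene turned its direction. The smallest gland held 195 members, which limits the precision of its sums.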
